A study of Arabidopsis thaliana with 10 samples.

Results

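The chloroplast genome of Arabidopsis thaliana encodes core subunits of the photosynthetic machinery and part of the machinery that transcribes and translates them, and its transcripts were measured here in roots. Every probe set paired with exactly 1 gene of the chloroplast genome in the annotation was taken, whatever its values, which gave 63 probe sets for 63 genes out of 17481 probe sets tested. The RefSeq table lists 84 chloroplast loci with 78 distinct symbols, and 15 symbols had no probe set of their own, among them atpB, ndhB, psbC, psbD and rps12. Of the 63 genes, 39 serve photosynthesis: 5 photosystem I genes (psa), 13 photosystem II genes (psb), 6 cytochrome b6f genes (pet), 4 ATP synthase genes (atp), 10 genes of the NDH complex (ndh) and rbcL. Another 18 serve gene expression: 4 genes of the plastid-encoded RNA polymerase (rpo), 7 and 6 genes of the small and large ribosomal subunits (rps and rpl), and the intron maturase gene matK. The other 6 were accD, ccsA, cemA, clpP, ycf3 and ycf4.

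Plastids of root cells are mostly non-green, and in them the photosynthesis genes of the plastid genome are known to be transcribed at low rates compared with leaves. A plastid-encoded polymerase, whose core subunits are the rpo products, transcribes most photosynthesis genes, whereas a nuclear-encoded phage-type polymerase is known for transcribing rpoB, accD and other housekeeping genes. Photosystem I, the cytochrome b6f complex and the NDH complex carry iron-sulfur clusters or haem, so photosynthetic electron transport is a large user of iron.

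RNA came from roots of wild type (WT, Col) and of the mutant bts-3, named for BRUTUS (BTS), an E3 ubiquitin ligase known to restrain the iron-deficiency response. After 2 weeks on B5 medium, plants spent 3 days with iron (+Fe) or without it (-Fe), which gave 2 arrays each for WT +Fe and WT -Fe and 3 each for bts-3 +Fe and bts-3 -Fe. The labels call the arrays of a group biological replicates and state neither the lesion of bts-3 nor the number of plants per sample. The genotype was not checked by the BTS transcript, which has no named probe set.

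Levels are deposited log2 values from RMA, in which 1 unit is a doubling, and log2 fold changes are differences between group means on that scale. Calls were made in limma where p, adjusted by Benjamini-Hochberg over all 17481 probe sets, was under 0.05. Array medians lay between 5.27 and 5.45, and the mean r of an array with the others of its group ran from 0.969 to 0.991. The lowest of these values belonged to bts-3 -Fe replicate 1, which also stood apart in the chloroplast genes, so results that rest on it are given with and without it. The next lowest medians were 5.30 and 5.35, on WT -Fe replicates 1 and 2. Those arrays and bts-3 -Fe replicate 1 also had the highest lower quartiles, at 3.19, 3.10 and 3.26, and the lowest chloroplast means. The part of this shift in the chloroplast results was not tested, and values under other scalings are given below. All 63 genes lay above the dimmest 25% of probe sets. Their mean level over the 10 arrays ran from 6.30 for psbM to 12.97 for psbA, an order of probe-set values and not of transcript abundance.

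Separation of root from shoot was checked with nuclear genes of green tissue. Of 26 listed, 8 had a named probe set (RCA, LHCB4.1, LHCB4.2, LHCB4.3, PSAE-1, PSAN, PSBW and PSBY), and the highest single value was that of RCA, the Rubisco activase gene, at 8.21. LHCB4.3, for a minor antenna protein, stayed between 2.23 and 3.05 on all arrays. The mean level of these 8 genes was 6.32 and 6.09 on WT +Fe, 5.42 and 5.21 on WT -Fe, 5.90, 5.89 and 5.63 on bts-3 +Fe, and 5.08, 5.62 and 5.85 on bts-3 -Fe. It was therefore higher on both WT +Fe arrays than on any other. Of 32 listed root genes, 2 had a named probe set: the root hair expansin genes EXPA7, at 7.40 to 8.83, and EXPA18, at 7.53 to 9.57. EXPA7 and EXPA18 were lowest on bts-3 +Fe replicate 3.

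Averaged over all 63 chloroplast genes, the level was 10.49 and 10.52 on WT +Fe, 10.21 and 10.19 on WT -Fe, 10.64, 10.63 and 10.75 on bts-3 +Fe, and 10.32, 10.65 and 10.62 on bts-3 -Fe. Both WT -Fe arrays were the lowest of the 10, and the third lowest was bts-3 -Fe replicate 1. The photosynthesis genes averaged 10.52 and 10.50 on WT +Fe, 10.20 and 10.12 on WT -Fe, 10.58, 10.60 and 10.69 on bts-3 +Fe, and 10.26, 10.63 and 10.59 on bts-3 -Fe. The gene-expression genes averaged 10.27 and 10.39, 10.06 and 10.13, 10.57, 10.49 and 10.69, and 10.23, 10.51 and 10.49 in the same order. In both classes WT -Fe lay below WT +Fe and bts-3 +Fe lay above WT +Fe without overlap. None of the 63 genes was called in any of the 5 comparisons, so the directions below are those of group means.

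**Figure D1:**
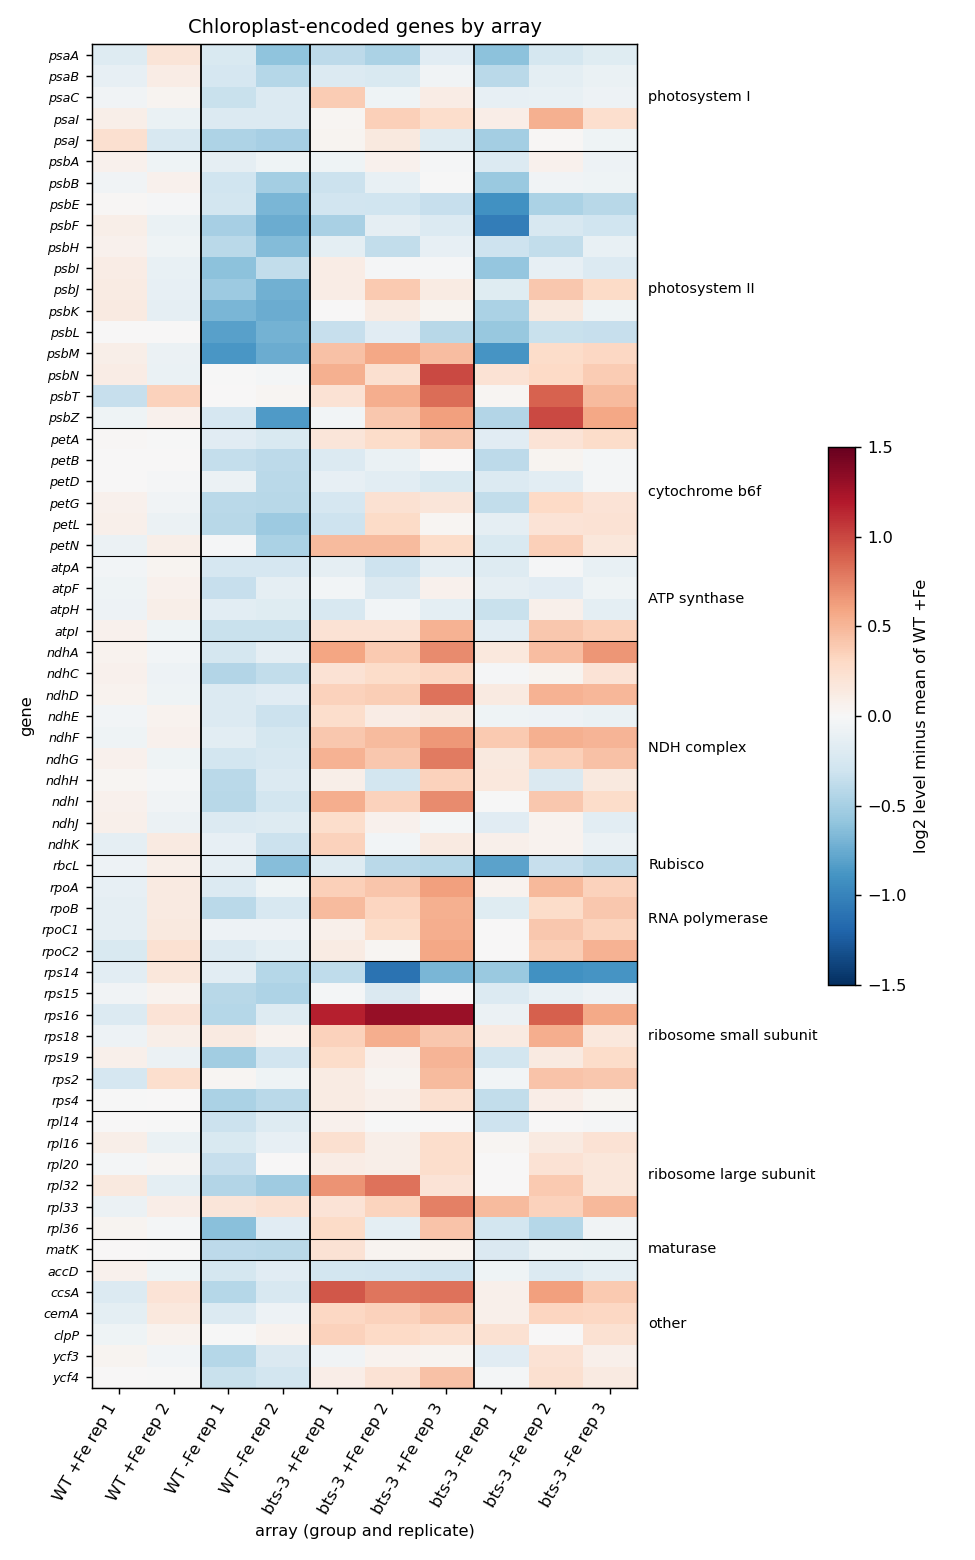
Each row is 1 of the 63 chloroplast-encoded genes, grouped by role, and each column 1 of the 10 arrays. Colour gives the log2 level minus that gene's mean over the WT +Fe arrays. The 2 WT -Fe columns are mostly below this reference, as is bts-3 -Fe replicate 1, and rps14 is below it in every bts-3 column.

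WT roots without iron had lower means than WT roots with iron for 59 of the 63 chloroplast genes, against 48.2% of all probe sets tested. The median log2 fold change was -0.30 over the 63 genes, -0.33 over the photosynthesis genes and -0.28 over the gene-expression genes, and 0.01 over all probe sets tested. The gene-expression median was -0.17 without replicate 2 of WT +Fe. The photosystem II genes had the lowest median of the groups with several genes, at -0.53, and the polymerase genes the median nearest 0, at -0.16. None of the 63 genes was called, where 0.0286% of all probe sets were, and the smallest adjusted p of a member was 0.254, for psbL. At an unadjusted limma p under 0.05, 10 genes were lower, beside 3.47% of all probe sets, and 0 were higher, beside 4.9%. The 10 were psbF, psbH, psbI, psbJ, psbK, psbL, psbM, ndhC, rps15 and matK. The arrays of the 2 groups did not overlap for 49 genes lower on -Fe, beside 21.1% of all probe sets, and for rpl33 higher on -Fe, beside 23.2%. With each array centred on a common median, which moved the median of all probe sets to 0.12, the median of the members was -0.19, and 55 were lower. The count of 10 was 1 without WT +Fe replicate 1, 5 without WT +Fe replicate 2, 6 without WT -Fe replicate 1 and 3 without WT -Fe replicate 2. It was 5, 5 and 6 without bts-3 +Fe replicates 1, 2 and 3, which enter only through the shared spread.

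The green-tissue genes of the nucleus moved with this comparison. Of the 8, 7 were lower on WT -Fe at an unadjusted limma p under 0.05, beside 3.47% of all probe sets, and none was called, where 0.0286% were. RCA had a log2 fold change of -1.42 and PSAN, for a photosystem I subunit, of -1.27. Their part in the lower chloroplast means was not tested. In whole roots, fewer cells of a type and less plastid RNA per cell cannot be told apart.

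In bts-3 roots the same comparison of media gave smaller differences. On -Fe 52 of the 63 genes had lower means, against 45.5% of all probe sets, with a median log2 fold change of -0.12 over all members, -0.11 over the photosynthesis genes and -0.14 over the gene-expression genes. None was called, where 0.0229% of all probe sets were, and the smallest adjusted p was 0.598, for rps16. At an unadjusted limma p under 0.05, rps16 and ccsA were lower, beside 2.09% of all probe sets, and with the bts-3 replicate number as a block 4 genes were, beside 3.29%. Higher at that limit were 0 genes, beside 2.87%. Arrays did not overlap for 10 genes lower on -Fe, beside 3.28%, and for accD higher on -Fe, beside 4.98%. The direction of the rest leaned on bts-3 -Fe replicate 1: without it the median was -0.02, 40 genes were lower and 23 higher, and the medians of the photosynthesis and gene-expression genes were -0.01 and -0.06. These class medians were -0.17 and -0.22 without replicate 2. At the unadjusted limit, 1 gene was lower without replicate 1, beside 2.71%. Of the 8 green-tissue genes 7 were lower by value, and that replicate had their lowest mean on any array, at 5.08. The part of these genes in the result was not tested. With each array centred on a common median, 45 genes were lower and 18 higher.

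The WT and bts-3 responses to iron shared no arrays. Their log2 fold changes had the same sign for 50 of the 63 genes (79.4%, against 59% of all probe sets) and correlated at r = 0.26 across the members, near the 0.24 of all probe sets. The genes share arrays, so this describes these libraries. The bts-3 signs leaned on replicate 1 of bts-3 -Fe. Without that array, 40 genes were lower and 23 higher on -Fe in bts-3, and the shared signs were not counted again. In the interaction fit, the iron response of bts-3 lay above that of WT for 52 of the 63 genes, beside 50.9% of all probe sets, with a median difference of 0.17. That median was 0.10 without replicate 2 of bts-3 -Fe and 0.23 without replicate 1. None was called, where 0.00572% of all probe sets were, and 1 gene, psbL, had an unadjusted limma p under 0.05, beside 2.11% of all probe sets above 0 and 2.35% below it. With the bts-3 replicate number as a block 3 genes did, all above 0, beside 3.97% of all probe sets, and none was called.

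With iron, bts-3 roots had higher means than WT for 46 of the 63 genes and lower means for 17, where 49.1% of all probe sets were higher. The median log2 fold change was 0.17 over the members, 0.06 over the photosynthesis genes and 0.23 over the gene-expression genes, beside -0.01 over all probe sets. The photosynthesis median was 0.02 without replicate 2 of WT +Fe, 0.12 without replicate 1 of WT +Fe or replicate 2 of bts-3 +Fe, and 0.10 without replicate 3 of bts-3 +Fe. The last of these also took the gene-expression median to 0.15, and leaving out replicate 2 of bts-3 +Fe took it to 0.33. Among the groups of genes, the NDH complex (0.39) and the polymerase (0.37) had the highest medians, and photosystem I (0.00), photosystem II (0.02) and cytochrome b6f (0.03) lay near 0. None was called, where 0.269% of all probe sets were, and the smallest adjusted p was 0.113, for rps16. At an unadjusted limma p under 0.05, 11 genes were higher, beside 3.54% of all probe sets: rps16, ccsA, ndhA, ndhD, ndhF, ndhG, ndhI, rpl32, psbN, rpoA and rps18. Lower at that limit was rps14, beside 5.39%. Arrays did not overlap for 26 genes higher, beside 13.5%, and 9 lower, beside 15.8%. Normalised by quantiles again, 38 genes were higher and 25 lower, and the photosynthesis genes split 19 to 20 with a median of -0.01. The count of 11 was 7 and 5 when replicates 1 and 2 of WT +Fe were left out, and 5 without replicate 3 of bts-3 +Fe. The green-tissue genes did not move with these genes here: 7 of 8 were lower in bts-3 +Fe, and their mean was 5.63 to 5.90 against 6.09 to 6.32 in WT +Fe. The root hair genes were lower too, EXPA7 by a log2 fold change of -0.65 and EXPA18 of -0.95, and the part of root cell types in the result was not tested.

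Without iron, bts-3 roots had higher means than WT for 60 of the 63 genes, against 48% of all probe sets. The 3 exceptions were rps14, rbcL and psbE. Without bts-3 -Fe replicate 1, 62 genes were higher and rps14 alone was lower, with rbcL at 0.01 and psbE at 0.04. The median log2 fold change was 0.30 over the members, the photosynthesis genes and the gene-expression genes alike, and -0.01 over all probe sets. The NDH genes (0.53) and the polymerase genes (0.45) again had the highest medians, followed by photosystem II and cytochrome b6f at 0.32 each. None was called, as was 0% of all probe sets, and the smallest adjusted p was 0.64. At an unadjusted limma p under 0.05, 19 genes were higher, beside 2.92% of all probe sets, and 0 were lower, beside 3.74%. Arrays did not overlap for 38 genes higher, beside 8.28%, and for rps14 lower, beside 11.3%. When bts-3 -Fe replicate 1 was left out, the median became 0.42, and 29 genes were higher at an unadjusted limma p under 0.05, beside 8.05% of all probe sets. Then rps14 was lower, beside 7.89%, the smallest adjusted p was 0.0638, and 52 genes were higher without overlap, beside 22% of all probe sets. The count of 19 was 6 and 8 when replicates 1 and 2 of WT -Fe were left out, and 8 and 11 when replicates 2 and 3 of bts-3 -Fe were. The green-tissue genes overlapped between these groups, at a mean of 5.21 to 5.42 in WT and 5.08 to 5.85 in bts-3, with 6 of 8 higher in bts-3. The overlap rested on replicate 1 of bts-3 -Fe, at 5.08, and the other bts-3 arrays, at 5.62 and 5.85, lay above both WT arrays. So without that array the green-tissue genes were higher in bts-3 together with the chloroplast genes, and their part was not tested. The WT -Fe arrays enter both this comparison and the WT iron response, so the low photosystem II values of WT -Fe count in both.

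**Figure D2:**
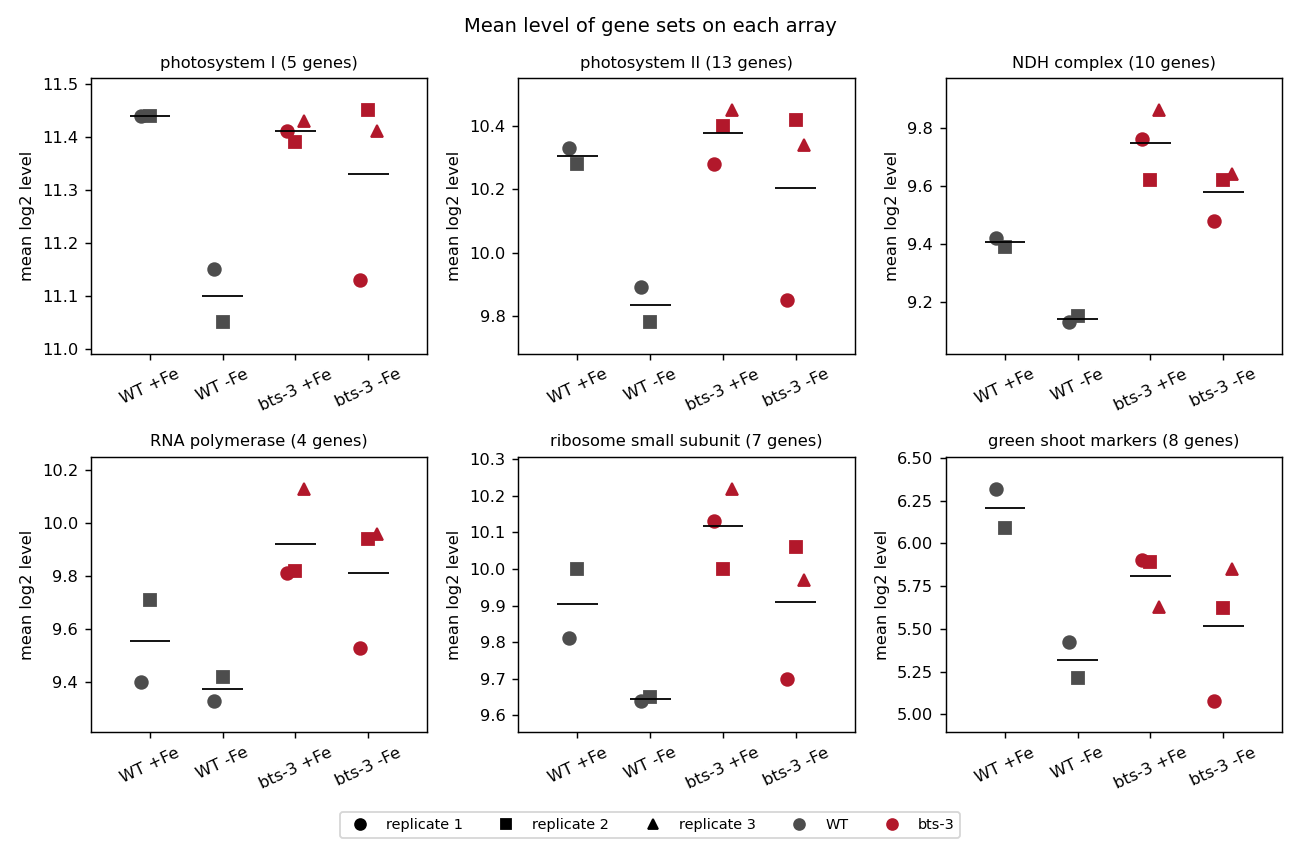
Each panel is 1 group of chloroplast genes, or the 8 nuclear green-tissue genes, with its mean log2 level on each of the 10 arrays by condition. Points are arrays, marked by replicate number and coloured by genotype, and bars are group means. In the NDH and polymerase panels all bts-3 arrays lie above the WT arrays of the same medium, and bts-3 -Fe replicate 1 lies below its group mates in every panel.

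Both comparisons of bts-3 with WT use separate arrays, and their log2 fold changes had the same sign for 49 of the 63 genes (77.8%, against 59.6% of all probe sets). Across the members they correlated at r = 0.74 and rho = 0.71, against 0.27 and 0.27 across all probe sets, a description in which the genes share arrays. On both media 22 genes were higher in bts-3 without overlap of arrays, beside 2.44% of all probe sets. They were 7 NDH genes (ndhA, ndhC, ndhD, ndhE, ndhF, ndhG and ndhI), rpoA, rpoB, rps4, rps16, rps18, rpl16, rpl20, rpl32, rpl33, matK, atpI, psbN, ccsA, cemA and ycf4. Lower on both media without overlap was rps14, beside 2.97%. Averaged over the media, a comparison added after the data were seen, 25 genes were higher at an unadjusted limma p under 0.05, beside 5.17% of all probe sets, and rps14 was lower, beside 6.67%. None of them was called, and the smallest adjusted p values were 0.0807 for rps16, 0.0837 for ccsA and 0.0888 for ndhF. Averaged over the genotypes, also added later, 16 genes were lower on -Fe at that limit, beside 3.63%, and none was called.

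**Figure D3:**
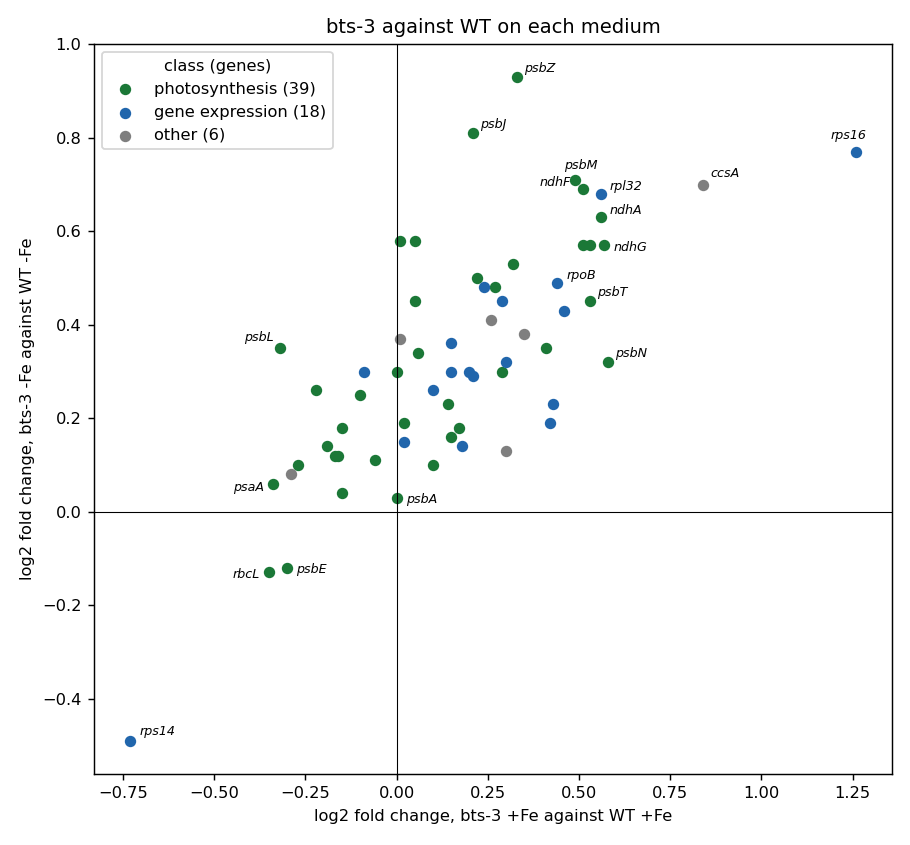
Each point is 1 of the 63 genes, with its log2 fold change of bts-3 against WT on +Fe (horizontal) and on -Fe (vertical), coloured by class. Most points lie in the upper right, rps16 at 1.26 and 0.77 is farthest out, and rps14 at -0.73 and -0.49 stands alone at the lower left.

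Photosystem II takes electrons from water, and its 13 measured genes held the lowest iron responses in WT. The gene psbL, for a small subunit, lay at 10.19 and 10.19 on WT +Fe, 9.37 and 9.48 on WT -Fe, 9.84, 10.02 and 9.77 on bts-3 +Fe, and 9.62, 9.86 and 9.84 on bts-3 -Fe. WT +Fe stood above every other array and WT -Fe below every other, and the WT iron response was a log2 difference of -0.76 (SE 0.19, adjusted p = 0.254 in limma). In psbM, another small subunit and the dimmest of the 63 genes, the values were 6.43 and 6.25 on WT +Fe, 5.47 and 5.60 on WT -Fe, 6.78, 6.92 and 6.80 on bts-3 +Fe, and 5.46, 6.62 and 6.65 on bts-3 -Fe. Its response was -0.81 in WT and -0.59 in bts-3, without overlap in either genotype. Without bts-3 -Fe replicate 1, the low array at 5.46, the response of psbM in bts-3 was -0.20. The gene psbJ, for a small subunit encoded beside psbL, lay at 10.24 and 10 on WT +Fe, 9.58 and 9.40 on WT -Fe, 10.23, 10.51 and 10.24 on bts-3 +Fe, and 9.94, 10.53 and 10.41 on bts-3 -Fe. Against WT -Fe it was higher on all bts-3 -Fe arrays, with a log2 difference of 0.81 (SE 0.22, adjusted p = 0.64 in limma). Of the 13 genes, 11 were lower on WT -Fe than on WT +Fe without overlap, beside 21.1% of all probe sets. So were 49 of the 63 members, including 9 of the 10 NDH genes and all 5 photosystem I genes. The 11 included psbK at -0.71, psbF at -0.62, psbZ at -0.56, psbH at -0.53 and psbI at -0.49.

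For psbI, the values were 11.79 and 11.57 on WT +Fe, 11.07 and 11.31 on WT -Fe, 11.79, 11.66 and 11.66 on bts-3 +Fe, and 11.10, 11.56 and 11.47 on bts-3 -Fe, and it was lower on -Fe without overlap in both genotypes. Its response in bts-3 was -0.33, and -0.19 without replicate 1 of bts-3 -Fe. The gene psbZ, also for a small subunit, varied widely between replicates, at 9.42 and 9.54 on WT +Fe, 9.23 and 8.63 on WT -Fe, 9.44, 9.89 and 10.09 on bts-3 +Fe, and 9.04, 10.47 and 10.06 on bts-3 -Fe. Its log2 fold change against WT -Fe was 0.93 with an SE of 0.38, and the groups overlapped on the low value of bts-3 -Fe replicate 1. The gene psbE, for a cytochrome b559 subunit, lay at 11.73 and 11.69 on WT +Fe, 11.44 and 11.02 on WT -Fe, 11.42, 11.41 and 11.37 on bts-3 +Fe, and 10.80, 11.24 and 11.29 on bts-3 -Fe. It was highest in WT +Fe, and bts-3 had lower means on both media. On -Fe this rested on replicate 1 of bts-3 -Fe, without which the log2 fold change of psbE against WT was 0.04.

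The D1 reaction centre gene psbA was the brightest of the 63 genes, at 13.07 and 12.95 on WT +Fe, 12.88 and 12.94 on WT -Fe, 12.95, 13.08 and 12.99 on bts-3 +Fe, and 12.80, 13.08 and 12.93 on bts-3 -Fe. Its 4 group means lay within 0.10 of each other. A pair of psb genes ran unlike the other psb genes in the WT iron response. One was psbN, known as an assembly factor and not a subunit, at 8.71 and 8.50 on WT +Fe, 8.59 and 8.57 on WT -Fe, 9.13, 8.84 and 9.59 on bts-3 +Fe, and 8.82, 8.90 and 8.98 on bts-3 -Fe. The other was the small-subunit gene psbT, at 6.15 and 6.83 on WT +Fe, 6.49 and 6.52 on WT -Fe, 6.71, 7.03 and 7.33 on bts-3 +Fe, and 6.52, 7.38 and 6.97 on bts-3 -Fe. Their WT iron responses were -0.02 and 0.01, and psbN was higher in bts-3 on both media without overlap.

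Photosystem I reduces ferredoxin through iron-sulfur clusters, and its core genes psaA and psaB followed one another. The values of psaA were 11.73 and 12.11 on WT +Fe, 11.69 and 11.32 on WT -Fe, 11.53, 11.44 and 11.75 on bts-3 +Fe, and 11.31, 11.66 and 11.74 on bts-3 -Fe. Those of psaB were 12.46 and 12.69 on WT +Fe, 12.33 and 12.15 on WT -Fe, 12.38, 12.35 and 12.53 on bts-3 +Fe, and 12.17, 12.43 and 12.48 on bts-3 -Fe. Both were lower on WT -Fe than on WT +Fe without overlap, at -0.41 and -0.34, and neither differed from WT without overlap in bts-3. The gene psaC, for the subunit that binds the terminal clusters, had log2 fold changes of -0.26 in WT and -0.25 in bts-3 on -Fe, without overlap in either. The median over the 5 photosystem I genes was -0.34 for the WT iron response and -0.06 for that of bts-3. The sign of the latter rested on replicate 1 of bts-3 -Fe. Without it, the bts-3 responses of psaA, psaB and psaI were 0.13, 0.04 and 0.17, and those of psaC and psaJ -0.24 and -0.02.

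The cytochrome b6f complex passes electrons between the photosystems. Its cytochrome f gene petA and cytochrome b6 gene petB had WT iron responses of -0.20 and -0.37. The small-subunit gene petL lay at 10.87 and 10.70 on WT +Fe, 10.37 and 10.24 on WT -Fe, 10.48, 11.08 and 10.82 on bts-3 +Fe, and 10.65, 10.99 and 11.01 on bts-3 -Fe. WT -Fe was below all other groups in it, and bts-3 -Fe was higher than WT -Fe with a log2 difference of 0.58 (SE 0.21, adjusted p = 0.712 in limma). Over the 6 genes the median was -0.31 for the WT iron response and -0.02 for that of bts-3. The sign of the latter rested on replicate 1 of bts-3 -Fe. Without it, the bts-3 responses of petB, petD, petG and petL were 0.11, 0.08, 0.20 and 0.21. Those of petA and petN were -0.05 and -0.15.

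In the ATP synthase, the alpha-subunit gene atpA lay at 11.63 and 11.71 on WT +Fe, 11.42 and 11.42 on WT -Fe, 11.54, 11.36 and 11.54 on bts-3 +Fe, and 11.48, 11.65 and 11.56 on bts-3 -Fe. Compared with WT, bts-3 was lower with iron and higher without it, each time without overlap. The ring-subunit gene atpH was steadier, at 12.89 and 13.06 on WT +Fe, 12.81 and 12.79 on WT -Fe, 12.73, 12.93 and 12.82 on bts-3 +Fe, and 12.64, 13.05 and 12.82 on bts-3 -Fe. Of the 4 genes, atpI, for the membrane a-subunit, differed most from the others, with a log2 fold change of 0.32 in bts-3 on +Fe where atpA had -0.19. The large subunit gene of Rubisco, rbcL, lay at 11.75 and 11.92 on WT +Fe, 11.70 and 11.19 on WT -Fe, 11.64, 11.42 and 11.40 on bts-3 +Fe, and 11.03, 11.49 and 11.43 on bts-3 -Fe. It was highest in WT +Fe, and it was 1 of the 3 genes with lower means in bts-3 on both media. On -Fe this rested on replicate 1 of bts-3 -Fe, without which the log2 fold change of rbcL against WT was 0.01.

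The NDH complex of chloroplasts feeds electrons from ferredoxin back to plastoquinone, and all 10 of its measured genes had higher means in bts-3 on both media. At an unadjusted limma p under 0.05 these were 5 genes on +Fe, beside 3.54% of all probe sets, and 6 on -Fe, beside 2.92%. The dimmest of them, ndhF, lay at 7.86 and 7.98 on WT +Fe, 7.76 and 7.66 on WT -Fe, 8.33, 8.39 and 8.57 on bts-3 +Fe, and 8.31, 8.45 and 8.43 on bts-3 -Fe. Its bts-3 arrays were all above its WT arrays, by a log2 difference of 0.51 (SE 0.17, adjusted p = 0.321 in limma) on +Fe and a log2 difference of 0.69 (SE 0.17, adjusted p = 0.64 in limma) on -Fe. The values of ndhG were 9.26 and 9.12 on WT +Fe, 8.91 and 8.95 on WT -Fe, 9.71, 9.59 and 9.97 on bts-3 +Fe, and 9.34, 9.55 and 9.63 on bts-3 -Fe. The difference from WT was 0.57 on +Fe and 0.57 on -Fe, each with non-overlapping arrays. The genes ndhA, ndhI and ndhD gave similar values, at 0.56, 0.53 and 0.51 on +Fe and 0.63, 0.57 and 0.57 on -Fe. Smaller values came from ndhH, at 0.06 and 0.34, and from ndhJ, at 0.10 and 0.10. Normalised by quantiles again, 9 of the 10 were higher on +Fe.

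The plastid-encoded polymerase genes were higher in bts-3 by mean on both media, all 4 of them. The beta-subunit gene rpoB lay at 8.87 and 9.13 on WT +Fe, 8.59 and 8.76 on WT -Fe, 9.47, 9.32 and 9.53 on bts-3 +Fe, and 8.82, 9.28 and 9.41 on bts-3 -Fe. No bts-3 array of a medium overlapped WT on that medium. The alpha-subunit gene rpoA was brighter, at 10.41 and 10.66 on WT +Fe, 10.33 and 10.46 on WT -Fe, 10.89, 10.95 and 11.15 on bts-3 +Fe, and 10.58, 11.02 and 10.87 on bts-3 -Fe. Its difference from WT was a log2 difference of 0.46 (SE 0.19, adjusted p = 0.511 in limma) on +Fe and a log2 difference of 0.43 (SE 0.19, adjusted p = 0.738 in limma) on -Fe. The genes rpoC1 and rpoC2, for the split beta-prime subunit, also had higher means in bts-3, with more spread. Values were 8.96 and 9.25 on WT +Fe, 9.02 and 9.02 on WT -Fe, 9.18, 9.37 and 9.64 on bts-3 +Fe, and 9.10, 9.50 and 9.43 on bts-3 -Fe for rpoC1. For rpoC2 they were 9.37 and 9.83 on WT +Fe, 9.39 and 9.45 on WT -Fe, 9.72, 9.63 and 10.18 on bts-3 +Fe, and 9.61, 9.97 and 10.12 on bts-3 -Fe. Both were above WT without overlap on -Fe and overlapped it on +Fe.

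**Figure D4:**
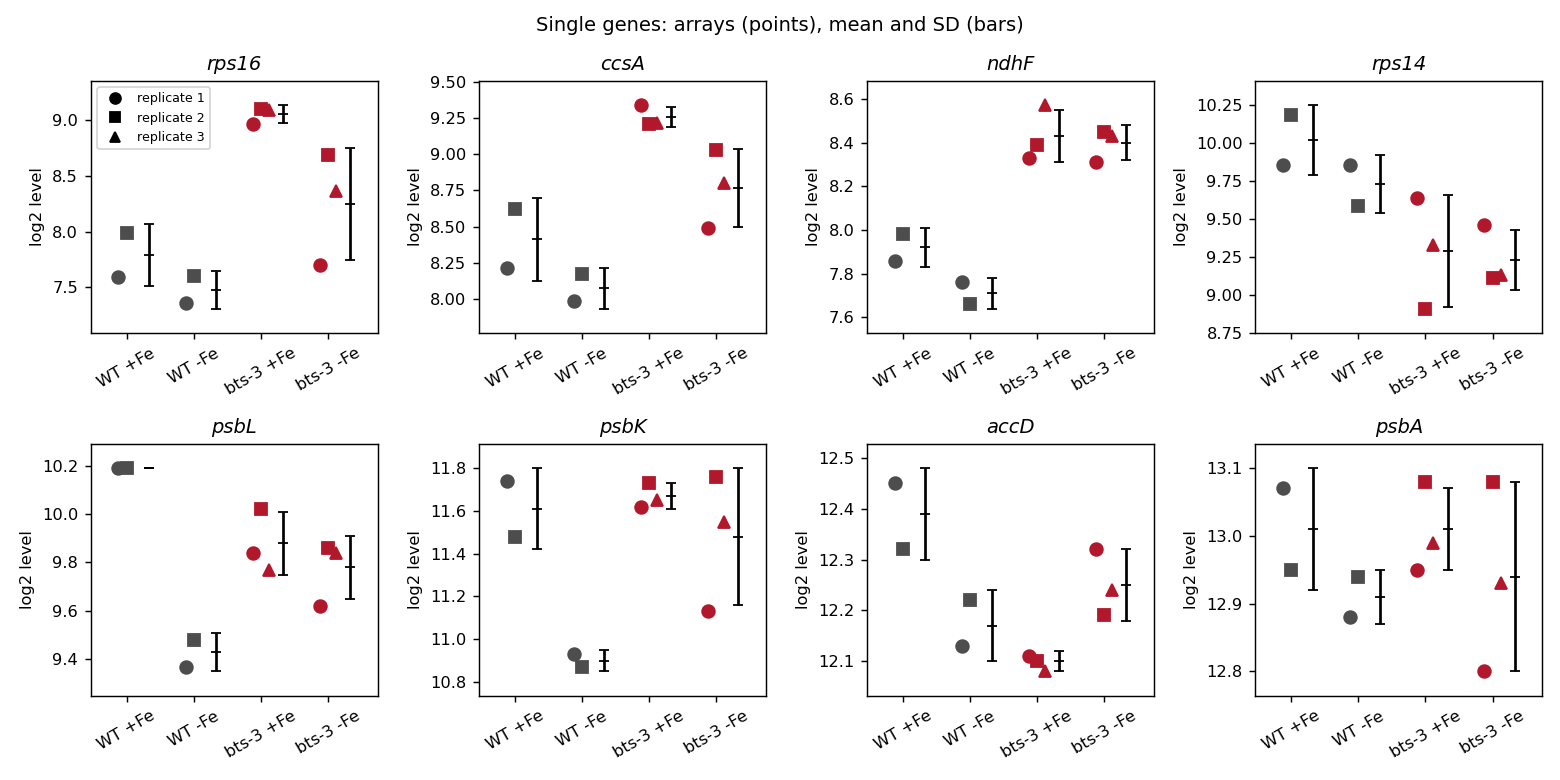
Log2 level on each of the 10 arrays for single chloroplast genes, with the arrays grouped by condition. Points are arrays, bars are the mean and SD, and each panel has its own vertical scale. The gene rps16 is highest in bts-3 +Fe, psbL lowest in WT -Fe, and rps14 lower in bts-3 than in WT on both media.

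Among ribosomal protein genes, rps16 had the largest difference between genotypes of the 63 genes on +Fe. In Arabidopsis its product is known to be supplied by a nuclear gene. Its values were 7.59 and 7.99 on WT +Fe, 7.36 and 7.60 on WT -Fe, 8.96, 9.10 and 9.09 on bts-3 +Fe, and 7.70, 8.69 and 8.36 on bts-3 -Fe. All bts-3 +Fe arrays stood above all others, and the difference from WT +Fe was a log2 difference of 1.26 (SE 0.27, adjusted p = 0.113 in limma). On -Fe the difference was a log2 difference of 0.77 (SE 0.27, adjusted p = 0.705 in limma), and bts-3 -Fe lay below bts-3 +Fe by a log2 difference of -0.80 (SE 0.24, adjusted p = 0.598 in limma). Leaving out replicate 1 of bts-3 -Fe made the latter rps16 value -0.52. The call of rps16 on +Fe depended on the fit: its adjusted p was 0.0369 with only the groups compared, 0.0161 with array weights and 0.0245 without bts-3 -Fe replicate 1.

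The gene rps14, for a small-subunit protein, went the other way, at 9.86 and 10.19 on WT +Fe, 9.86 and 9.59 on WT -Fe, 9.64, 8.91 and 9.33 on bts-3 +Fe, and 9.46, 9.11 and 9.13 on bts-3 -Fe. Its WT arrays lay above its bts-3 arrays on each medium, with a log2 difference of -0.73 (SE 0.24, adjusted p = 0.331 in limma) on +Fe and a log2 difference of -0.49 (SE 0.24, adjusted p = 0.746 in limma) on -Fe. It is transcribed together with psaA and psaB, whose log2 fold changes on +Fe were -0.34 and -0.16. On -Fe these were 0.06 and 0.12.

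Other genes of the small subunit were closer together. The gene rps15 lay at 10.66 and 10.76 on WT +Fe, 10.29 and 10.25 on WT -Fe, 10.68, 10.49 and 10.71 on bts-3 +Fe, and 10.50, 10.60 and 10.63 on bts-3 -Fe. It was lowest in WT -Fe, and its bts-3 groups overlapped. The values of rps18 were 9.12 and 9.29 on WT +Fe, 9.34 and 9.25 on WT -Fe, 9.54, 9.74 and 9.61 on bts-3 +Fe, and 9.34, 9.74 and 9.36 on bts-3 -Fe. It was 1 of the 4 genes with a higher mean on WT -Fe than on WT +Fe, and its bts-3 means were higher than WT on both media. For rps2 the values were 9.43 and 9.93 on WT +Fe, 9.71 and 9.62 on WT -Fe, 9.80, 9.72 and 10.15 on bts-3 +Fe, and 9.64, 10.11 and 10.09 on bts-3 -Fe, and all groups overlapped. For rps4 they were 11.34 and 11.36 on WT +Fe, 10.88 and 10.95 on WT -Fe, 11.47, 11.43 and 11.59 on bts-3 +Fe, and 10.98, 11.45 and 11.39 on bts-3 -Fe, with WT -Fe below all other arrays and bts-3 -Fe replicate 1 nearest to it.

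In the large subunit, rpl32 had the largest differences between genotypes, at 9.34 and 9.04 on WT +Fe, 8.75 and 8.66 on WT -Fe, 9.86, 10.01 and 9.39 on bts-3 +Fe, and 9.19, 9.58 and 9.36 on bts-3 -Fe. They were 0.56 on +Fe and 0.68 on -Fe, both without overlap. The gene rpl33 lay at 9.67 and 9.86 on WT +Fe, 9.94 and 9.99 on WT -Fe, 9.97, 10.09 and 10.52 on bts-3 +Fe, and 10.23, 10.11 and 10.25 on bts-3 -Fe, and was the only member higher on WT -Fe than on WT +Fe without overlap. The gene rpl36 lay at 11.01 and 10.94 on WT +Fe, 10.34 and 10.80 on WT -Fe, 11.26, 10.82 and 11.40 on bts-3 +Fe, and 10.69, 10.54 and 10.92 on bts-3 -Fe, and overlapped between genotypes on both media. The 3 brightest, rpl20, rpl14 and rpl16, moved little. Values of rpl20 were 12.67 and 12.73 on WT +Fe, 12.36 and 12.70 on WT -Fe, 12.81, 12.79 and 12.96 on bts-3 +Fe, and 12.71, 12.92 and 12.87 on bts-3 -Fe. Those of rpl14 were 12.65 and 12.63 on WT +Fe, 12.32 and 12.45 on WT -Fe, 12.70, 12.63 and 12.64 on bts-3 +Fe, and 12.33, 12.65 and 12.62 on bts-3 -Fe. Those of rpl16 were 11.97 and 11.78 on WT +Fe, 11.65 and 11.76 on WT -Fe, 12.12, 11.97 and 12.14 on bts-3 +Fe, and 11.91, 12.01 and 12.10 on bts-3 -Fe. Of these 3, rpl20 and rpl16 were higher in bts-3 on both media without overlap. The intron maturase gene matK lay at 11.24 and 11.22 on WT +Fe, 10.84 and 10.83 on WT -Fe, 11.45, 11.27 and 11.28 on bts-3 +Fe, and 11.01, 11.14 and 11.13 on bts-3 -Fe, lower on -Fe without overlap in both genotypes.

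Of the 6 genes outside both classes, ccsA, for a factor that attaches haem to c-type cytochromes, came next to rps16. Its values were 8.21 and 8.62 on WT +Fe, 7.98 and 8.17 on WT -Fe, 9.34, 9.21 and 9.22 on bts-3 +Fe, and 8.49, 9.03 and 8.80 on bts-3 -Fe. Its bts-3 arrays lay above the WT arrays of the same medium, by a log2 difference of 0.84 (SE 0.21, adjusted p = 0.163 in limma) on +Fe and a log2 difference of 0.70 (SE 0.21, adjusted p = 0.682 in limma) on -Fe. Its adjusted p on +Fe was 0.0402 with array weights. The gene accD, for a subunit of the acetyl-CoA carboxylase of fatty acid synthesis, lay at 12.45 and 12.32 on WT +Fe, 12.13 and 12.22 on WT -Fe, 12.11, 12.10 and 12.08 on bts-3 +Fe, and 12.32, 12.19 and 12.24 on bts-3 -Fe. It was lower on -Fe in WT and higher on -Fe in bts-3, without overlap in either genotype. The protease subunit gene clpP lay at 11.89 and 12 on WT +Fe, 11.94 and 12 on WT -Fe, 12.30, 12.25 and 12.20 on bts-3 +Fe, and 12.18, 11.95 and 12.18 on bts-3 -Fe, with bts-3 above WT on +Fe without overlap. The photosystem I assembly genes ycf3 and ycf4 had differences between genotypes of 0.01 and 0.26 on +Fe and 0.37 and 0.41 on -Fe.

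Position along the chloroplast genome was set beside these values with the gene order of the RefSeq table. The stretch from ndhF to rps15, chosen after the values were seen, holds 11 consecutive genes (ndhF, rpl32, ccsA, ndhD, psaC, ndhE, ndhG, ndhI, ndhA, ndhH and rps15), all measured. In bts-3 on +Fe its median log2 fold change was 0.51, while the other 52 genes had a median of 0.14. Of the stretch 7 genes, and of the others 4, were higher at an unadjusted limma p under 0.05, beside 3.54% of all probe sets. On -Fe the medians were 0.57 and 0.30, with 7 and 12 such genes, beside 2.92%. In the WT iron response the medians were -0.27 and -0.30, and in that of bts-3 -0.25 and -0.11. Most genes of this stretch were also among the dimmer members. Across the 63 genes, the log2 fold change in bts-3 was lower the brighter the gene, at rho = -0.63 on +Fe and -0.51 on -Fe, against 0.04 and 0.17 across all probe sets. The dimmer 32 genes had medians of 0.34 on +Fe and 0.45 on -Fe, and the brighter 31 genes of 0.01 and 0.18. Position, level and role overlap in these genes and cannot be told apart here.

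**Figure D5:**
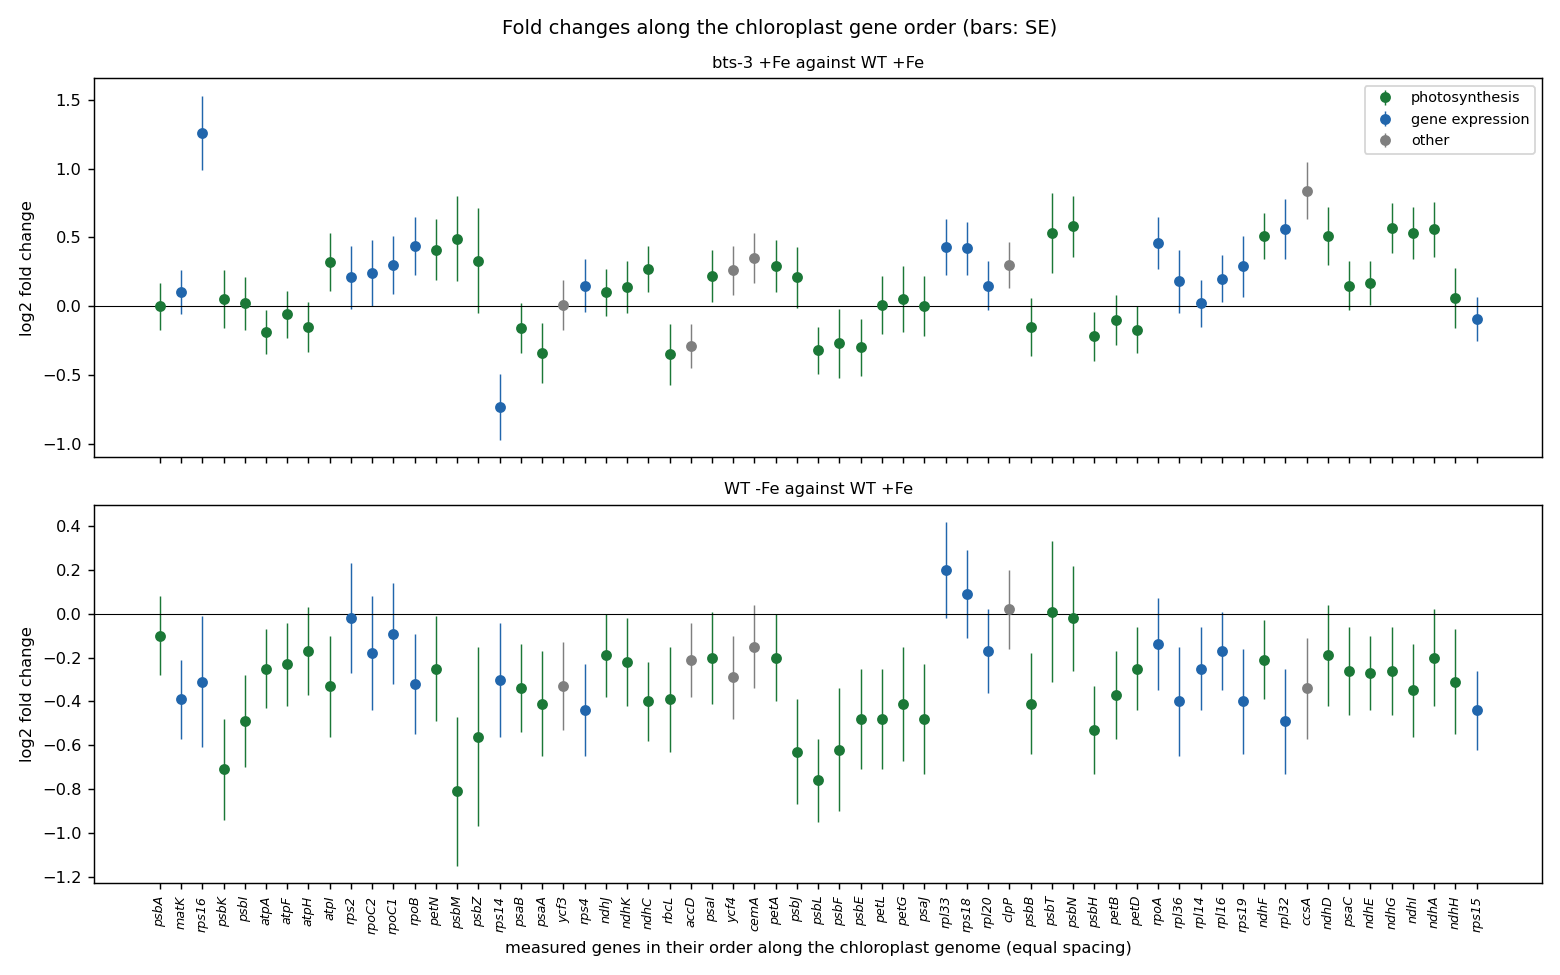
The 63 genes stand in their order along the chloroplast genome (horizontal, rank and not distance), with log2 fold changes on the vertical axis. Points are estimates with SE, for bts-3 +Fe against WT +Fe (upper panel) and for WT -Fe against WT +Fe (lower panel). The run from ndhF to rps15 at the right has a median of 0.51 above and -0.27 below, beside 0.14 and -0.30 over the other genes.

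Genes transcribed together did not always have like values. The cluster psbE, psbF, psbL and psbJ had WT iron responses of -0.48, -0.62, -0.76 and -0.63. In bts-3 on -Fe the same genes had -0.12, 0.10, 0.35 and 0.81 against WT. The cluster psaI, ycf4, cemA and petA was even on +Fe, at 0.22, 0.26, 0.35 and 0.29. In the psbB cluster psbT stood at 0.53 where psbB had -0.15 and psbH -0.22. Over the 10 arrays, the gene nearest to the mean of the other gene-expression genes was rpoB, at r = 0.98, and the farthest was rps14, at -0.55. Nearest to the mean of the other photosynthesis genes was psbK, at 0.95, and farthest rbcL, at 0.28. These are descriptions over arrays that share groups.

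Few nuclear genes that act on plastid transcripts had a named probe set. Of 39 listed for plastid transcription only MRL7-L was measured, at 3.34 to 4.18, and none of 12 listed greening regulators was. Of 38 listed for plastid RNA processing 8 were measured and none was called, with 3 higher and 5 lower by value in bts-3 on each medium. The only one of them with an unadjusted limma p under 0.05 between genotypes was CRR22, higher on -Fe, beside 2.92% of all probe sets. In the WT iron response OTP70 was lower at that limit, at -0.67, beside 3.47%. CRR22, a pentatricopeptide protein known for editing ndh transcripts, had means of 3.84 with iron and 3.99 without it in WT, and of 4.39 and 4.64 in bts-3. Its log2 fold change in bts-3 on -Fe was 0.65 (SE 0.26, adjusted p = 0.729 in limma). CRR21, of the same list, went the other way in bts-3, at -0.57 on +Fe and -0.10 on -Fe. Of 31 listed for plastid iron and iron-sulfur clusters 2 were measured and none was called, and they went opposite ways. HCF101, known for assembling clusters for photosystem I, had a log2 difference of -0.60 (SE 0.26, adjusted p = 0.573 in limma) in the WT iron response and of -0.60 (SE 0.24, adjusted p = 0.48 in limma) in bts-3 on +Fe. SUFE2, known for activating the plastid cysteine desulfurase, had 0.72 (SE 0.46, adjusted p = 0.729 in limma) and 1.01 (SE 0.42, adjusted p = 0.51 in limma) in the same comparisons.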

How the data were processed

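The deposited table held log2 values for 28583 probe sets on 10 Affymetrix arrays, which the authors made by RMA. Affymetrix Expression Console was the program, per the submitters' processing notes, and its version and any detection calls are not given in the sources used here. The method subtracts background, sets the arrays to a common distribution and summarises probes, so dim probe sets have compressed fold changes. Per the labels' protocols, 100 ng of total RNA was labelled for each array. For arrays, their number limits the precision.

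Genes were named from the platform annotation and matched through gene IDs to RefSeq's TAIR10.1 table (16574 single-gene probe sets). All 17481 probe sets with a named gene entered the test, dim ones included. The 4 group means were fitted together over the 10 arrays with limma 3.58.1 in R 4.3.3 (lmFit, eBayes, 6 residual and 4.57 prior degrees of freedom), two-sided, with Benjamini-Hochberg adjustment within each of 5 comparisons. The fit was tested on simulated data. Counts and medians over the members are descriptions and carry no test.

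The members, the gene lists and the tests were chosen with earlier results of these data known. Values on every array are given for the 2 genes with the highest and the 2 with the lowest fold change in each class and comparison, the 3 brightest and 3 dimmest of each class, and psbA, rbcL, psaA, psaB, the rpo genes, matK, accD and clpP, with others chosen after their values were seen. The bts-3 arrays of like number on both media deviated together from their group means (r = 0.302, 0.511 and 0.389 across probe sets), so the numbers appear to pair them, on the evidence of the values. The WT numbers did not (r = -0.107). Between genotypes, arrays of like number on -Fe gave r = 0.303 for replicate 1 and 0.261 for replicate 2. On +Fe these values were -0.0289 and -0.0723. Copies of chloroplast sequence in other genomes of the plant may share probes with these genes, which was not tested. No coordinates or sequences are given.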

Additional observations from a re-analysis of the deposited data

Results flagged for a closer look

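For 4 genes the groups moved opposite ways without overlap of arrays under the same contrast. The share of all probe sets that did so was not counted, so whether 4 of 63 is unusual cannot be said. Non-overlap alone was common in the WT iron response, at 21.1% of all probe sets lower and 23.2% higher. In the bts-3 iron response 4.98% were higher. In bts-3 against WT 15.8% were lower on +Fe and 8.28% higher on -Fe. The gene accD, for a carboxylase subunit, was lower on -Fe in WT and higher on -Fe in bts-3, and the iron response of bts-3 minus that of WT was 0.37 on the log2 scale. The small photosystem II subunit genes psbH and psbL and the ATP synthase gene atpA were below WT in bts-3 with iron and above WT without it, with differences between the iron responses of 0.48, 0.66 and 0.34. In the limma interaction fit none of the 4 differences was called. Of them, psbL alone had an unadjusted limma p under 0.05. WT +Fe was the highest group and WT -Fe the lowest in psbH and psbL.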

How the results depend on the processing

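The alternatives to the deposited scaling, filter, samples, weights and block left 402 of 408 summary values (counts of called genes and medians over the members) on the same side or within the spread between replicates, and 6 moved. None reversed beyond that spread. It was 0.12 for the photosynthesis genes, wider than some of the medians, so a change of sign near 0 counted as the same. Their median in bts-3 against WT on +Fe went from 0.06 to -0.01 when normalised by quantiles again. With a common array median the median of the WT iron response was -0.19 instead of -0.30. In bts-3 against WT on +Fe, 1 gene was called with only the groups compared, 2 with array weights, and 0 to 1 when each array was left out in turn. These calls were rps16, and ccsA with array weights. On -Fe the median over the members ran from 0.27 to 0.42 over the arrays left out, the higher without bts-3 -Fe replicate 1. Averaged over the media, a comparison added after the data were seen, the photosynthesis genes had a median of 0.19 instead of 0.06. The causes were not tested. Of the values of single genes under the alternatives, 869 kept direction and side of the threshold, and 4 passed it. No member is listed more than once in the chloroplast genome, so leaving out repeated genes changed nothing. With the replicate block over all arrays 0 members were called in every comparison, and the smallest adjusted p on +Fe between genotypes was 0.0569. At an unadjusted limma p under 0.05, this block gave 8 lower genes in the WT iron response, beside 4.65% of all probe sets. In bts-3 against WT it gave 10 higher genes on +Fe, beside 4.37%, and 13 on -Fe, beside 3.25%. With crossed WT numbers as the block 0 members were called. The number of arrays, 2 or 3 in a group, limits the precision.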

Other observations

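Another 19 probe sets are paired with a chloroplast gene together with other genes and were left out above. Their median log2 fold change was -0.21 in the WT iron response (17 lower) and -0.22 in that of bts-3 (15 lower). Between genotypes it was 0.31 on +Fe (17 higher) and 0.28 on -Fe (16 higher). None was called.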
